A study of Mus musculus with 2 samples.

Results

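The cells described here are GABAergic cells with high Adarb2 and Erbb4, taken from newborn mouse forebrain and labelled as interneurons of the caudal ganglionic eminence (CGE). A cell was a member when its barcode held 5 or more unique molecular identifiers (UMIs, one per captured RNA molecule) of Adarb2, 2 or more of Erbb4 and at least 1 of Gad1 or Gad2. It also had to hold 0 UMIs of Lhx6, Sp8, Pbx3, Isl1, Mki67, Top2a and Neurod6. The rule found 280 cells among 37116 kept cells, which are barcodes with at least 1000 UMIs and under 10% mitochondrial UMIs. Of these members, 64 came from the wild-type library and 216 from the Gmnc-/- library.

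The study compared P0 mice of the C57BL/6J strain that lacked Gmnc with wild-type littermates. Gmnc encodes a relative of geminin needed for multiciliated cells, and the series concerns P73+ Cajal-Retzius cells and Reelin. Lateral and dorsal cortex with the hippocampus was taken from 4 animals per genotype (the knockouts came from 2 litters), pooled, dissociated with the Neural Tissue Dissociation Kit (P) and made into 1 library of the 10x 3' chemistry per genotype. With 1 library per genotype there is no test of genotype. Every difference given here is between the library labelled wild-type and the library labelled knockout, with intervals at 95% that cover counting error only. Gmnc was at 0 UMIs in the members of both libraries, and a tag at the 3' end need not lie in a deleted part, so it could not check the labels.

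CGE interneurons are inhibitory neurons that are born in the ventral forebrain, migrate tangentially into cortex and hippocampus and mature after birth into Vip, Lamp5 and Sncg types. They are known for the transcription factors Prox1, Nr2f2 and, in part of the population, Sp8, which the rule for these cells required to be absent. Adarb2 encodes a relative of the RNA-editing enzymes that lacks editing activity, and Erbb4 encodes a neuregulin receptor that interneurons of the medial ganglionic eminence (MGE) carry too.

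The promoter windows of 4 genes are shown because Adarb2 and Erbb4 chose the cells, while Nr2f2 checks the label and Meis2 is the gene by which the cells are divided further on. Each is the RefSeq window (GRCm38.p6) of the 250 bases before the gene's listed start, read 5′ to 3′ on the gene's strand, with the homeobox core TAATTA in capitals. Adarb2 is at chr13:8202616-8202865 on the plus strand, and its TAATTA begins 51 bases before the start. Erbb4 is at chr1:69108060-69108309, Nr2f2 at chr7:70366747-70366996 and Meis2 at chr2:116064620-116064869, all on the minus strand.
Adarb2: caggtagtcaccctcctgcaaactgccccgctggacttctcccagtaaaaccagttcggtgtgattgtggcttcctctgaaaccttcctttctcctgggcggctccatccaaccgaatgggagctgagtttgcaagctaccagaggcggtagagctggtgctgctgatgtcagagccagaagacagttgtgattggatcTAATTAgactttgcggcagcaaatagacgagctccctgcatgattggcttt
Erbb4: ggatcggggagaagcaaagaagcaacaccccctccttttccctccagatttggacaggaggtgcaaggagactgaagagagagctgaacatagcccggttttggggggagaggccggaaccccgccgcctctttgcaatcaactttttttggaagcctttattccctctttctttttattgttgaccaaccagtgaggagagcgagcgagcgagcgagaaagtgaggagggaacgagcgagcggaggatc
Nr2f2: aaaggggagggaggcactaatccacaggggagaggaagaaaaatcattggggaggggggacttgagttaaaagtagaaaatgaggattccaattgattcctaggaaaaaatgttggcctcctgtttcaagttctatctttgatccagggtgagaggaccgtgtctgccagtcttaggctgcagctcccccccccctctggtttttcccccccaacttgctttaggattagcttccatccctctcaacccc
Meis2: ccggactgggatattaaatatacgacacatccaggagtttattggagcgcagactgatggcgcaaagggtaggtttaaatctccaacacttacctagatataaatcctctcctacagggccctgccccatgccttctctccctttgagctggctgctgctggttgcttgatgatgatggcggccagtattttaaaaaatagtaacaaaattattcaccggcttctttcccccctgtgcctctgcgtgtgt
TAATTA reads the same on both strands, and 4.91% of 27025 windows of this length held it. Of the 4 windows, 1 did. None of the 4 held AGGTCA, the half-site of nuclear receptors such as Nr2f2, on either strand, against 13.8% of all windows. A match describes letters in a window and is not a binding site.

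The rule's own genes are given as a description only. Adarb2 ran from 5 to 168 UMIs per wild-type member with a median of 15.5, and from 5 to 162 with a median of 14 per knockout member. Erbb4 ran from 2 to 110 with a median of 22, and from 2 to 112 with a median of 18. The distributions overlapped over nearly their whole range, and none of the 4 measured genes of the rule differed by 1.5-fold. At the Adarb2 threshold, 4 wild-type and 19 knockout members held exactly 5 UMIs, and 6 and 29 cells that met the rest of the rule held exactly 4. At the Erbb4 threshold, 5 members in each library held exactly 2 UMIs, and 3 wild-type and 16 knockout cells held exactly 1.

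The exclusions did more to set the number of members than the thresholds did. The Adarb2, Erbb4 and Gad part of the rule alone was met by 883 wild-type and 2890 knockout cells, of which 7.25% and 7.47% were members. Pbx3, a homeobox gene of striatal and olfactory lineages, was detected in 710 and 2344 of these cells, and it was the only excluded gene in 337 and 945 of them. Members were shallow, with a median of 3342 UMIs for wild-type and 3276 for knockout members, against 6160 and 4927 over kept cells.

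The deposited matrices held 13033 wild-type barcodes with 88905819 UMIs and 27663 knockout barcodes with 155482657 UMIs. The 2 libraries shared 85 barcodes; none was a member in both, and 2 members' barcodes also occurred in the other library. Scrublet called 460 wild-type and 4994 knockout kept cells doublets, among them 1 and 27 members. A further check, made after the data were seen, marked 0 wild-type and 15 knockout members as mixed, because haemoglobin made up 5% or more of their UMIs or because they held at least 3 marker genes of 1 list (endothelial, microglial, meningeal or oligodendrocyte). Doublet calls and mixed barcodes together took in 1 wild-type and 33 knockout members, and values without those cells are given where they bear on a result.

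The label was checked with markers that the rule did not use, at a depth made equal by thinning each cell to 2000 UMIs, which left 48 wild-type and 171 knockout members. Nr2f2, which encodes the nuclear receptor COUP-TFII, was the clearest. It was detected in 45.8% of thinned wild-type and 32.2% of thinned knockout members (54.7% and 44.9% unthinned). In Lhx6 cells, the MGE-type neighbours with 2 or more Lhx6 UMIs, it was detected in 0% and 4.92% after thinning, and in Sp8 cells, which are defined alike by Sp8, in 8.51% and 7.19%. Microglia-type cells, which should lack these genes and so serve as a guide to free RNA, had 4.67% and 3.83%. Their unthinned median depths were 10700 and 7095 UMIs. Thinning takes a larger part of the UMIs from such deeper cells, so their shares can understate free RNA in the members. The members' shares lay above all of these in both libraries, with intervals of 31.4 to 60.8% and 25.2 to 39.7%.

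**Figure D1:**
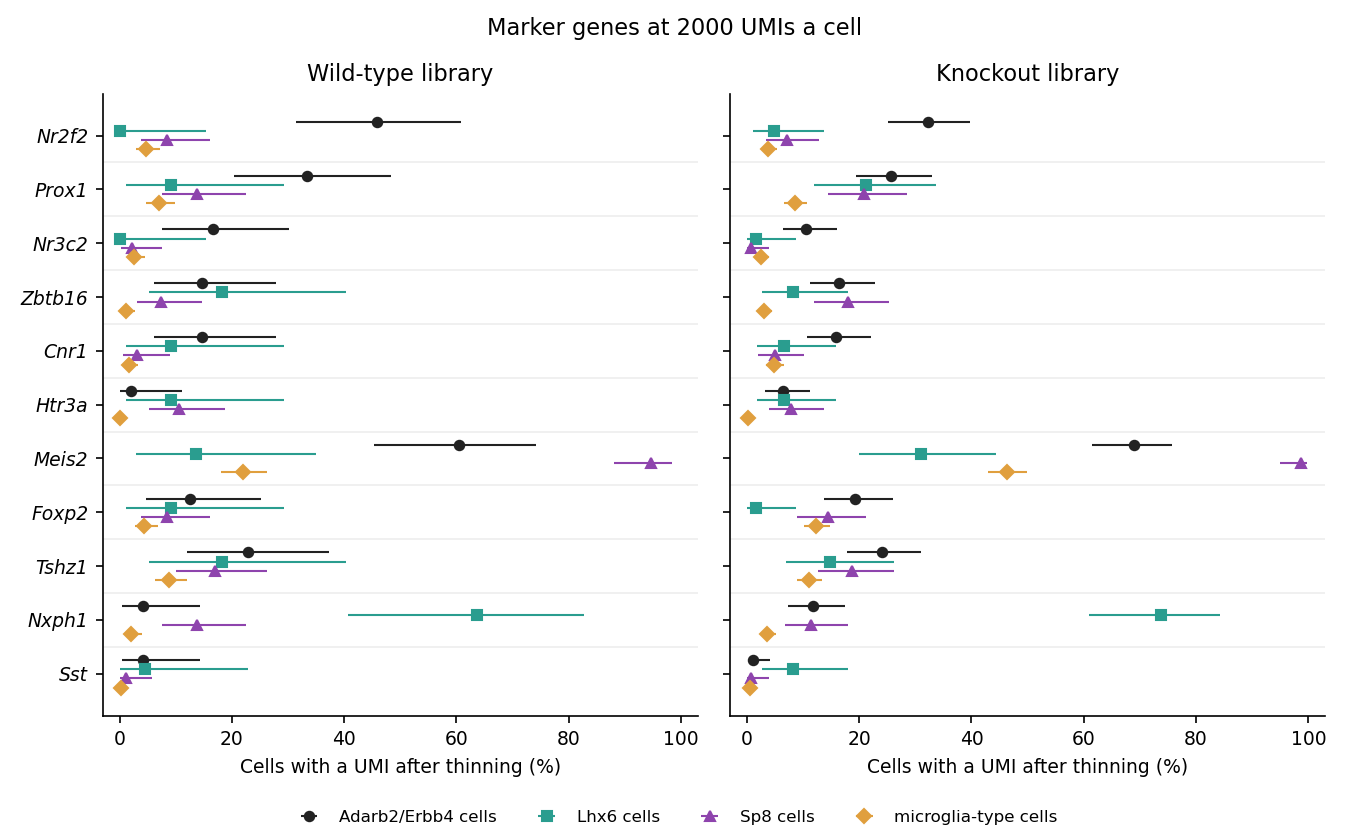
Percentage of cells with a UMI of each gene after thinning to 2000 UMIs, in the wild-type (left) and knockout (right) library, for 4 groups of cells; bars are exact 95% binomial intervals and cover counting error only. Nr2f2 and Nr3c2 are highest in the Adarb2/Erbb4 cells in both libraries, Nxph1 in the Lhx6 cells and Meis2 in the Sp8 cells.

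Prox1, a homeobox gene of CGE interneurons and dentate granule cells, was a weaker mark. It was detected in 33.3% and 25.7% of thinned members (42.2% and 39.8% unthinned), against 7.01% and 8.53% of microglia-type cells and 13.8% and 20.9% of Sp8 cells. In the knockout library the Lhx6 cells reached 21.3%, so there Prox1 hardly set the members apart from the MGE-type cells. Nr3c2, the mineralocorticoid receptor, was rarer but more restricted, with 16.7% and 10.5% of thinned members (20.3% and 19.4% unthinned) against 0% and 1.64% of Lhx6 cells, 2.13% and 0.719% of Sp8 cells and 2.57% and 2.60% of microglia-type cells. Levels are given as CPM, the UMIs of a gene scaled to a fixed total per library. At least 1 UMI of Prox1 or Nr2f2 was found in 41 of 64 wild-type members (64.1%) and 132 of 216 knockout members (61.1%).

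Several genes of mature CGE types were not detected. Vip, Lamp5, Sncg, Kit and Chat were at 0 UMIs in the members of both libraries, which allows up to 12.2 CPM in the wild-type members and 3.50 CPM in the knockout members at a floor of 3 counts. At least 1 of the 15 subtype genes was nonetheless detected in 25 of 64 wild-type and 74 of 216 knockout members. Htr3a, the serotonin receptor subunit by which CGE interneurons are often defined, had 6 UMIs in 4 wild-type members and 38 UMIs in 28 knockout members. The MGE genes Nkx2-1, Lhx8, Nxph2 and Pvalb were also at 0 in both.

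Many members also held a gene of other lineages. Meis2, a homeobox gene of the lateral ganglionic eminence, of olfactory and striatal lineages and of amygdalar cells, was detected in 60.4% of thinned wild-type and 69.0% of thinned knockout members (41 of 64 and 162 of 216 members unthinned). Microglia-type cells, which should lack it, also held Meis2 in 22.0% and 46.4% after thinning, and Lhx6 cells in 13.6% and 31.1%. The thinned microglia-type cells had been deeper, with medians of 11813 and 7553 UMIs against 4664 and 3896 in the thinned members. These shares therefore cannot show whether the members lie above free RNA, and the part of free RNA in their Meis2 was not tested. Meis2 was often found together with the CGE factors. Unthinned, it was detected in 25 of 41 wild-type and 94 of 132 knockout members with Prox1 or Nr2f2. Among members with neither factor it was detected in 16 of 23 and 68 of 84. Meis2 detection alone thus does not tell which members lie outside the label. The cells are therefore called Adarb2/Erbb4 cells here, not CGE interneurons.

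Members were next divided by their Meis2 level. Adarb2 and Erbb4 chose the cells, so their values along this division are a description and support nothing. At 2000 UMIs a cell, the 19 wild-type members with 0 Meis2 UMIs held a mean of 20.7 Adarb2 UMIs (counting interval 18.7 to 22.9) and the 23 with 2 or more held 7.17 (6.12 to 8.36). In the knockout library the 53 members with 0 Meis2 UMIs held 19.8 (18.6 to 21.0) and the 90 with 2 or more held 7.68 (7.12 to 8.27). Single cells overlapped widely, from 1 to 41 against 1 to 25 Adarb2 UMIs among wild-type and from 1 to 119 against 0 to 65 among knockout members.

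Erbb4 had means of 20.4 against 10.0 UMIs among wild-type and 20.8 against 7.83 among knockout members. Nr2f2 was held by 47.2% of knockout members with 0 and 18.9% with 2 or more Meis2 UMIs. Among wild-type members its shares were 52.6% and 30.4%, with overlapping intervals. Nr3c2 had 12 UMIs in the 19 wild-type members without Meis2 and 3 in the 23 with 2 or more, and 41 in 53 against 13 in 90 in the knockout library. Galnt14, a glycosyltransferase gene, had 8 against 1 and 13 against 7 UMIs in the same groups. Cnr1 had 10 against 0 and 25 against 11. By share of cells, the intervals of Nr3c2, Galnt14 and Cnr1 overlapped between the groups in both libraries. For Nr3c2, 1 knockout cell held 16 of the 41 UMIs and another held 6 of the 13. All 3 wild-type Nr3c2 UMIs in the group with 2 or more Meis2 UMIs lay in 1 doublet call.

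Other genes ran in opposite directions in the 2 libraries. Zbtb16 was detected in 1 of 19 wild-type members without Meis2 and 4 of 23 with 2 or more Meis2 UMIs, but in 13 of 53 and 10 of 90 knockout members. Tshz1, a zinc-finger gene of the lateral ganglionic eminence, was detected in 6 of 19 and 4 of 23 wild-type members, but in 5 of 53 and 27 of 90 knockout members. The intervals of Zbtb16 overlapped in both libraries. Those of Tshz1 overlapped among wild-type members and were narrowly apart among knockout members (3.13 to 20.7% and 20.8 to 40.6%). Prox1 was detected in 31.6% and 26.1% of wild-type and in 34.0% and 23.3% of knockout members, with overlapping intervals in each library.

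Foxp2, a forkhead gene of striatal, amygdalar and deep-layer neurons, was more frequent in members with Meis2. It was detected in 0 of 19 wild-type members without Meis2 and in 5 of 23 with 2 or more Meis2 UMIs, with overlapping intervals. In the knockout library it was detected in 4 of 53 against 27 of 90, with intervals that did not overlap. Microglia-type cells, thinned alike, held it in 4.44% and 12.4%. Nrxn3, a synaptic adhesion gene with no part in the rule, did not follow the split, with means of 31.0 and 32.7 UMIs among wild-type and 32.6 and 31.5 among knockout members. Dlx6os1, the antisense RNA of the Dlx5 and Dlx6 locus, was detected in 84.2% and 87.0%, and in 84.9% and 86.7%. Without doublet calls and mixed barcodes, Adarb2 was at 20.7 against 7.23 UMIs among wild-type and at 21.7 against 8.80 among knockout members. The split was chosen after the values were seen, and the same cells supply both sides of it.

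**Figure D2:**
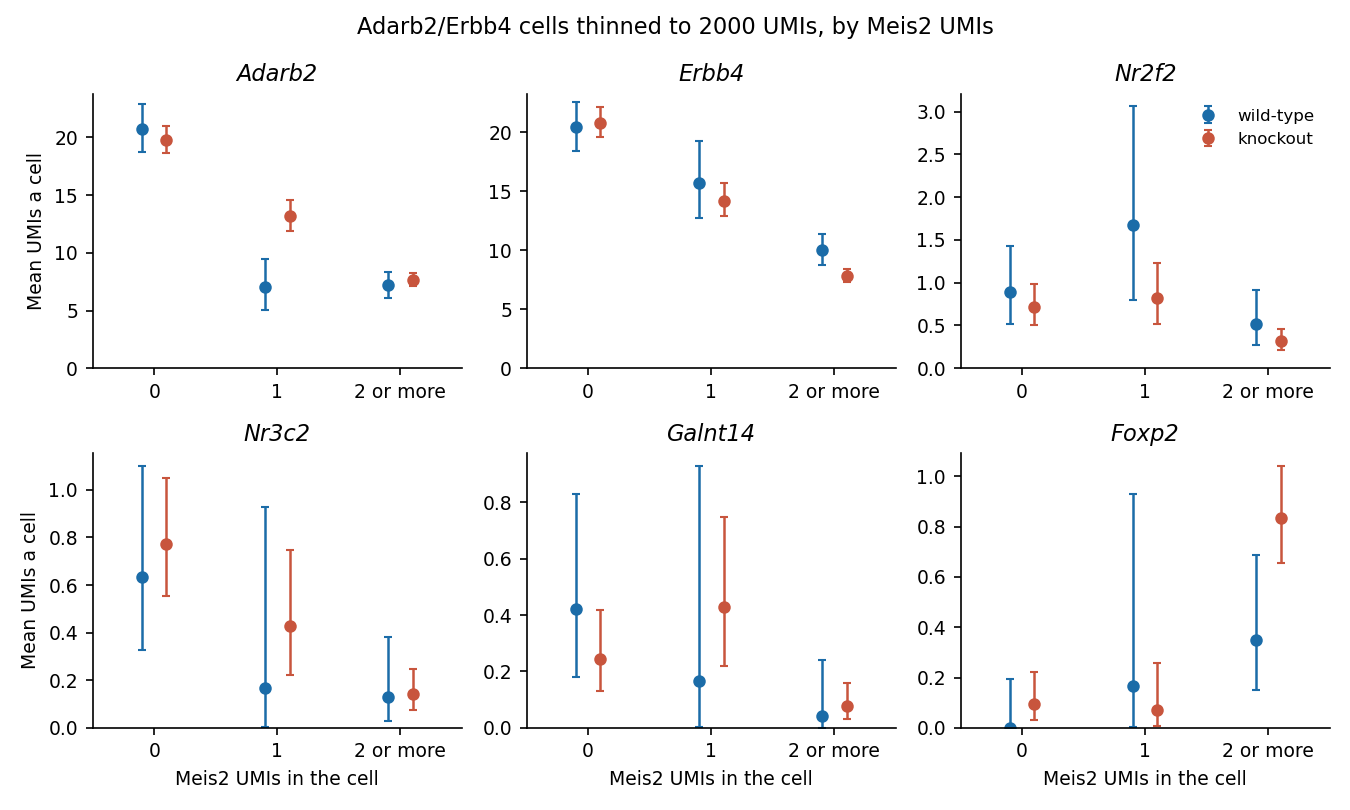
Mean UMIs per cell of 6 genes in Adarb2/Erbb4 cells thinned to 2000 UMIs, by the number of Meis2 UMIs in the cell (0, 1, 2 or more) and by library; bars are 95% Poisson intervals. Adarb2 and Erbb4 are 2 to 3 times higher in cells without Meis2 in both libraries, and Foxp2 is highest in cells with 2 or more Meis2 UMIs.

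Sorting the cells by Prox1 and Nr2f2 instead, without thinning, matched the Meis2 division for some genes and not for others. Members with neither Prox1 nor Nr2f2 held 2794 (wild-type) and 2940 (knockout) CPM of Meis2, against 751 and 1137 CPM in members with either factor. Foxp2 was detected in 9 of 23 and 33 of 84 of the former and in 5 of 41 and 20 of 132 of the latter. In the knockout library Adarb2 was at 5732 CPM in the former and 5501 in the latter, and Nr3c2 at 186.4 and 188.7, so neither followed this division there. Median depth was 2077 and 3019 UMIs in the former and 3822 and 3488 in the latter; the part of depth in this split was not tested.

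Set against the other cells with a Gad1 or Gad2 UMI, members were higher by at least 2-fold in both libraries in 50 of 6288 genes (0.795%) and lower in 45 (0.716%). Genes were measured when their mean over the members of the 2 libraries reached 25 CPM. These cells were defined by their own counts, so the ranking describes them and is not a test. Nr3c2 led it, with 194.7 CPM in wild-type and 187.9 in knockout members against 16.8 and 20.9 in other Gad cells. Without doublet calls and mixed barcodes the wild-type value was 124.8 CPM, because 1 doublet-called wild-type member held 19 of its 48 UMIs, and the knockout value was 232.3.

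Zbtb16, a zinc-finger gene, followed with 113.6 and 100.4 CPM against 16.2 in other wild-type Gad cells. Sntg1, a syntrophin gene, reached 543.5 and 511.2 CPM against 118.6 and 153.5. Slit1, a secreted guidance ligand, reached 178.5 and 148.2 CPM against 31.2 and 37.6. Grip1, a scaffold for AMPA receptors, and Npas3, a basic helix-loop-helix gene, were at 1448 and 1529 CPM and at 1290 and 1335 CPM. Galnt14 had 117.6 and 73.5 CPM against 10.4 and 15.7. The other 12 were Lgi1, Neb, Sorcs3, Fam65b, Trpc4, Galntl6, St18, Htr3a, Btbd11, Tle2, Kcnip1 and Pdzrn3, besides Nr2f2. Between libraries, Nr2f2 was the only one of the 20 whose ratio had an interval that left out 1.

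Lhx6 cells shared part of this set. They were few, with 23 wild-type and 72 knockout cells and 121827 and 293693 UMIs, so their values rest on small counts. Fam65b was higher there, at 484.3 and 514.1 CPM against 255.5 and 255.6 in the members. Neb was at 180.6 and 166.8 CPM against 129.8 and 162.2, and Lgi1 at 65.7 and 68.1 against 52.7 and 57.2. Galnt14, St18 and Kcnip1 were above the members in the wild-type Lhx6 cells only, at 156.0, 394.0 and 164.2 CPM. Grip1 was at 1231 and 1399 CPM in Lhx6 cells, close to the members, while Nr3c2 was at 8.21 and 10.2 CPM and Nr2f2 at 8.21 and 13.6 CPM there. In Sp8 cells, Htr3a alone of the set was above the members, at 59.5 and 51.9 CPM against 24.3 and 44.4. St18 was close to the members there, at 204.2 and 231.1 CPM against 223.1 and 236.9. Nr3c2 and Nr2f2 thus set the members apart from both neighbours in both libraries, and Grip1, Fam65b and Neb did not.

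The members made up 0.585% of kept wild-type cells (0.451 to 0.747%) and 0.825% of kept knockout cells (0.719 to 0.942%), a ratio of 1.41 (1.06 to 1.89). Among cells with a Gad1 or Gad2 UMI they made up 64 of 3893 and 216 of 10797, a ratio of 1.22 with an interval (0.917 to 1.63) that takes in 1. All cells with a Gad UMI were also more frequent in the knockout library, at 41.2% against 35.6% of kept cells. Lhx6 cells had a ratio of 1.31 (0.808 to 2.19), whereas Sp8 cells were less frequent in the knockout library, at 0.554% against 0.960% of kept cells (ratio 0.577, 0.446 to 0.749). The shares depend on the dissection and capture of 1 pool per genotype.

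Between the libraries the members' summed counts were close for most genes. The median log2 ratio of knockout over wild-type, computed on CPM with a prior of 5 CPM, was 0.04 over the 6288 genes. By 1.5-fold or more, 927 genes (14.7%) were higher in the knockout library and 620 (9.86%) lower. When a counting interval that leaves out 1 was also required, 415 (6.60%) and 295 (4.69%) were left. An interval that leaves out 1, whatever the fold, was found above 1 for 501 genes (7.97%) and below 1 for 415 (6.60%). At this depth 25 CPM correspond to 6.16 UMIs in the wild-type members and 21.4 in the knockout members, so the wild-type side limits the precision.

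**Figure D3:**
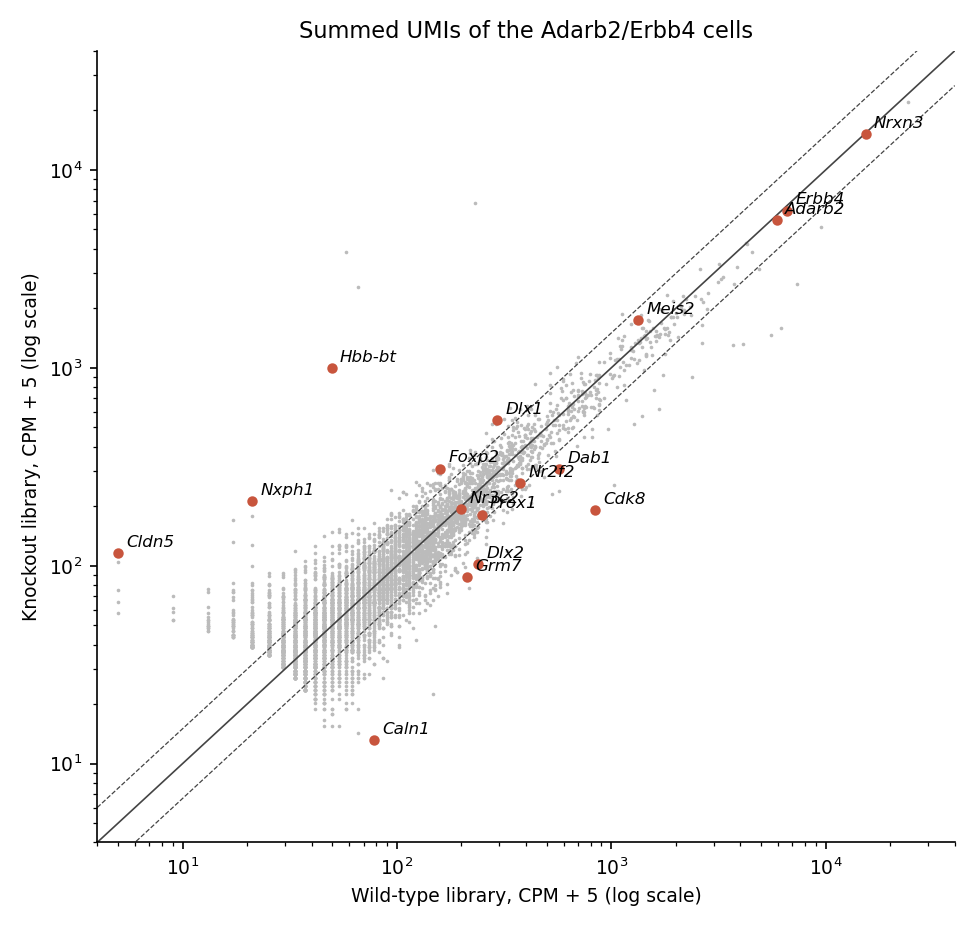
CPM plus 5 of the 6288 measured genes in the summed Adarb2/Erbb4 cells of the wild-type (x axis) and knockout (y axis) library, both on log scales; each grey point is a gene, named genes are in red, the solid line marks equality and the dashed lines 1.5-fold. Adarb2, Erbb4 and Nrxn3 lie near equality, and Nxph1, Cldn5 and Hbb-bt lie far above it.

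CGE identity genes did not shift together. Of 12 genes on the list 10 were measured, 2 were higher and 1 lower by 1.5-fold, and their median log2 ratio was -0.11 beside 0.04 over all genes. Nr2f2 had 91 UMIs in 35 wild-type members and 220 UMIs in 97 knockout members, or 369.1 and 256.8 CPM, a ratio of 0.696 (0.543 to 0.898). Without doublet calls and mixed barcodes it was 387.3 and 327.6 CPM. Prox1 was at 243.4 and 176.2 CPM (ratio 0.724, 0.534 to 0.994), and without those cells at 253.9 and 202.2.

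Cnr1, the cannabinoid receptor of a CGE basket-cell type, was at 182.5 and 107.4 CPM (ratio 0.588, 0.408 to 0.860) and was the one identity gene lower by 1.5-fold. Leaving out the doublet calls and mixed barcodes gave 193.7 and 122.0 CPM. The other measured genes had ratios whose intervals included 1, apart from Egfr, at 16.2 and 50.2 CPM (4 and 43 UMIs), whose log2 ratio came to -0.15 without those cells. Of the 15 subtype genes 4 were measured, with Calb2 and Id2 higher and Npy lower by 1.5-fold. Reln had 13 UMIs in 8 wild-type members and 32 in 11 knockout members, 52.7 and 37.3 CPM, a ratio between 0.362 and 1.47.

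Dlx1 and Dlx2, neighbouring homeobox genes that drive GABAergic fate, lay on opposite sides. Dlx1 had 71 UMIs in 34 of 64 wild-type members and 462 UMIs in 157 of 216 knockout members, 288.0 and 539.2 CPM, a ratio of 1.87 (1.46 to 2.44). Dlx2 had 58 UMIs in 29 wild-type members and 83 UMIs in 64 knockout members, 235.2 and 96.9 CPM, a ratio of 0.412 (0.291 to 0.586). Neither rested on 1 cell, since no member held more than 11 UMIs of either.

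The opposite shifts were not confined to these cells. In Lhx6 cells the log2 ratios were 0.20 for Dlx1 and -1.04 for Dlx2. In other Gad cells Dlx1 was at 243.8 and 412.3 CPM and Dlx2 at 198.4 and 96.8, and in Sp8 cells at 484.9 and 921.5 and at 406.6 and 173.3. Dlx1 overlaps Dlx1as on the other strand, which had 57 and 176 UMIs in the members, and whether the counting used strand is not given in the sources used here. Of the 12 genes for GABA synthesis, transport and fate, 11 were measured, with Dlx1 and Slc12a2 higher and Dlx2 lower by 1.5-fold (median log2 ratio -0.05). The vesicular GABA transporter Slc32a1 stood at 97.3 and 79.4 CPM (ratio 0.505 to 1.36, which takes in 1).

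Reelin, the glycoprotein that Cajal-Retzius cells secrete, acts through the receptors Lrp8 and Vldlr and the adaptor Dab1. All 12 genes on that list were measured, with 1 higher and 1 lower by 1.5-fold and a median log2 ratio of 0.19. Dab1 had 139 UMIs in 28 wild-type members and 260 UMIs in 74 knockout members, 563.8 and 303.5 CPM, a ratio of 0.538 (0.436 to 0.666). A single wild-type cell held 33 of the 139, and without doublet calls and mixed barcodes the values were 456.2 and 250.7 CPM. Sp8 cells had Dab1 at 107.2 and 205.9 CPM and Lhx6 cells at 32.8 and 153.2, higher in the knockout library in both. The wild-type Lhx6 value rests on 23 cells, and the difference between cell groups was not tested. Lrp8 was at 129.8 and 194.9 CPM (interval of the ratio 1.02 to 2.27), at 137.7 and 185.5 without doublet calls and mixed barcodes, and was also higher in the knockout library in Lhx6, Sp8 and excitatory cells. Vldlr, at 81.1 and 56.0 CPM, had a ratio between 0.402 and 1.23.

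Neuregulins, the ligands of Erbb4, were measured for Nrg1, Nrg2 and Nrg3. Nrg1 stood at 1845 and 1513 CPM (ratio 0.820, 0.736 to 0.914), with 141 of its 455 wild-type UMIs in 1 cell. It was at 1859 and 1152 CPM without doublet calls and mixed barcodes. Nrg3 was at 843.6 and 701.5 CPM (0.709 to 0.978), and at 791.8 and 715.4 without those cells. Of the 8 genes on the list 5 were measured, and Egfr was the only one past 1.5-fold.

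Among 20 migration and guidance genes 16 were measured, 4 of them higher and 0 lower by 1.5-fold (median log2 ratio 0.23). Robo2, a receptor for Slit ligands, was at 677.3 and 1055 CPM (ratio 1.56, 1.32 to 1.85) and at 697.1 and 1036 CPM without doublet calls and mixed barcodes. Slit2 was at 12.2 and 61.9 CPM, with a log2 ratio of 1.96 that came to 0.16 without those cells. Dcx, the microtubule protein of migrating neurons, was at 876.1 and 833.3 CPM in 54 of 64 and 195 of 216 members. The chemokine receptor Cxcr4, which guides interneurons along the cortical surface, was too low to be measured, with 4 UMIs in 4 wild-type members and 1 UMI in 1 knockout member.

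Receptors and channels varied gene by gene. Of 13 GABA receptor genes 8 were measured, with 2 higher and 1 lower by 1.5-fold and no interval that left out 1. Of 17 glutamate receptor genes 11 were measured, with 1 higher and 1 lower. Grm7 was at 206.9 and 82.9 CPM (ratio 0.401, 0.276 to 0.586), but 29 of its 51 wild-type UMIs lay in 1 cell, and without doublet calls and mixed barcodes it was at 94.7 and 85.2 CPM. Of the 12 further neurotransmitter receptor genes of CGE cells none was measured. Of 19 channel genes 17 were measured, with 4 higher and 1 lower (median log2 ratio 0.00). The potassium channel gene Kcnd2 was at 255.5 and 465.7 CPM (ratio 1.82, 1.39 to 2.42), and Kcnq5 at 373.1 and 220.6 (0.591, 0.458 to 0.767). Without doublet calls and mixed barcodes they were at 198.0 and 396.1 and at 374.4 and 265.8 CPM.

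Among synaptic adhesion genes, Nrxn3 had 3788 UMIs in all 64 wild-type members and 12956 in all 216 knockout members, 15364 and 15122 CPM (ratio 0.984, 0.949 to 1.02). Lsamp, at 555.7 and 999.1 CPM, had an interval above 1, but came to 473.4 and 454.6 CPM without doublet calls and mixed barcodes. Of 16 genes 14 were measured, with 4 higher and 1 lower. Of 15 maturation genes 14 were measured, with 1 higher, Syp, and 0 lower (median log2 ratio 0.00). Map2 was at 1123 and 1277 CPM and Stmn2 at 1590 and 1438, both with intervals that include 1.

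Most of the 15 genes lowest in the knockout library had low counts. Caln1, a calneuron gene, had 18 UMIs in 6 wild-type members and 7 in 4 knockout members, 73.0 and 8.17 CPM. Npy, the neuropeptide of other interneuron types, had 15 and 8 UMIs, with 12 of the 15 in 1 cell. Cdk8, a Mediator kinase gene, was by far the best counted, with 205 UMIs in 43 wild-type members and 159 in 97 knockout members, 831.5 and 185.6 CPM (ratio 0.223, 0.180 to 0.276). A single wild-type cell held 70 of the 205. Without doublet calls and mixed barcodes Cdk8 was at 834.9 and 170.5 CPM, and with 10 or more Adarb2 UMIs its log2 ratio came from -2.13 to -1.57. It was lower in the knockout library in Lhx6, Sp8, excitatory and microglia-type cells too, with log2 ratios of -1.68, -1.70, -1.62 and -1.44. The other 12 were Tex30, Zfp788, Dus3l, Pfdn4, Nup188, Polr2k, Rbmx2, Aasdhppt, Magoh, Eps8, Slc24a5 and Cks1b, with 10 to 52 wild-type UMIs each. Pfdn4, Polr2k, Magoh and Cks1b were also lower in each of those other cell groups. Nup188 was lower in Lhx6 cells (log2 ratio -1.96) but not in the other groups. Eps8 had a log2 ratio of -0.49 in Lhx6 cells and of 1.87 in Sp8 cells.

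Mitochondrial transcripts moved with these genes. All 13 measured mitochondrial genes were lower by 1.5-fold in the knockout members, mt-Atp6 at 6189 and 1577 CPM, and mitochondrial UMIs made up 3.44% and 1.12% of the members' total. The same held in Sp8 cells (2.84% and 1.11%) and in excitatory cells (3.28% and 1.21%). On the 10-gene RNA quality list, Malat1 was at 24319 and 21944 CPM and 7 genes, 5 of them mitochondrial and the others Tmsb4x and Tmsb10, were lower by 1.5-fold (median log2 ratio -1.05). The median gene length was 18.0 kb among genes 1.5-fold lower, 44.7 kb among genes 1.5-fold higher and 36.6 kb over all measured. The part of these differences in the other results was not tested.

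The 15 genes highest in the knockout library were led by markers of other cell types held by very few members. Cldn5, an endothelial tight-junction gene, had 0 UMIs in the wild-type members and 95 in the knockout members, 94 of them in 1 cell. The macrophage genes Mrc1 and F13a1 had 0 and 94 UMIs in 4 cells and 0 and 85 UMIs in 3 cells. Fos had 4 UMIs in 3 wild-type and 149 in 21 knockout members. The rest were Grm3, Ctla2a, Cdh18, Nxph1, Sparc, Ebf1, Xylt1, Tyrobp, C1qa, Sparcl1 and Slc7a5.

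Leaving out the 1 wild-type and 33 knockout members that were doublet calls or mixed changed this list. Cldn5 and Mrc1 came to 1.67 CPM each in the knockout library and F13a1 to 0. C1qa, a complement gene of microglia, came to 3.34 CPM against 4.30 in the wild-type library. Fos came to 23.4 against 12.9 CPM. Nxph1 stayed higher, at 158.8 against 17.2 CPM. In the knockout library Sparcl1 fell from 122.6 to 60.2 CPM, against 12.9 in the wild-type library. Grm3 fell from 70.0 to 21.7 CPM, against 0, and 30 of its 60 UMIs over all knockout members lay in 1 cell.

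**Figure D4:**
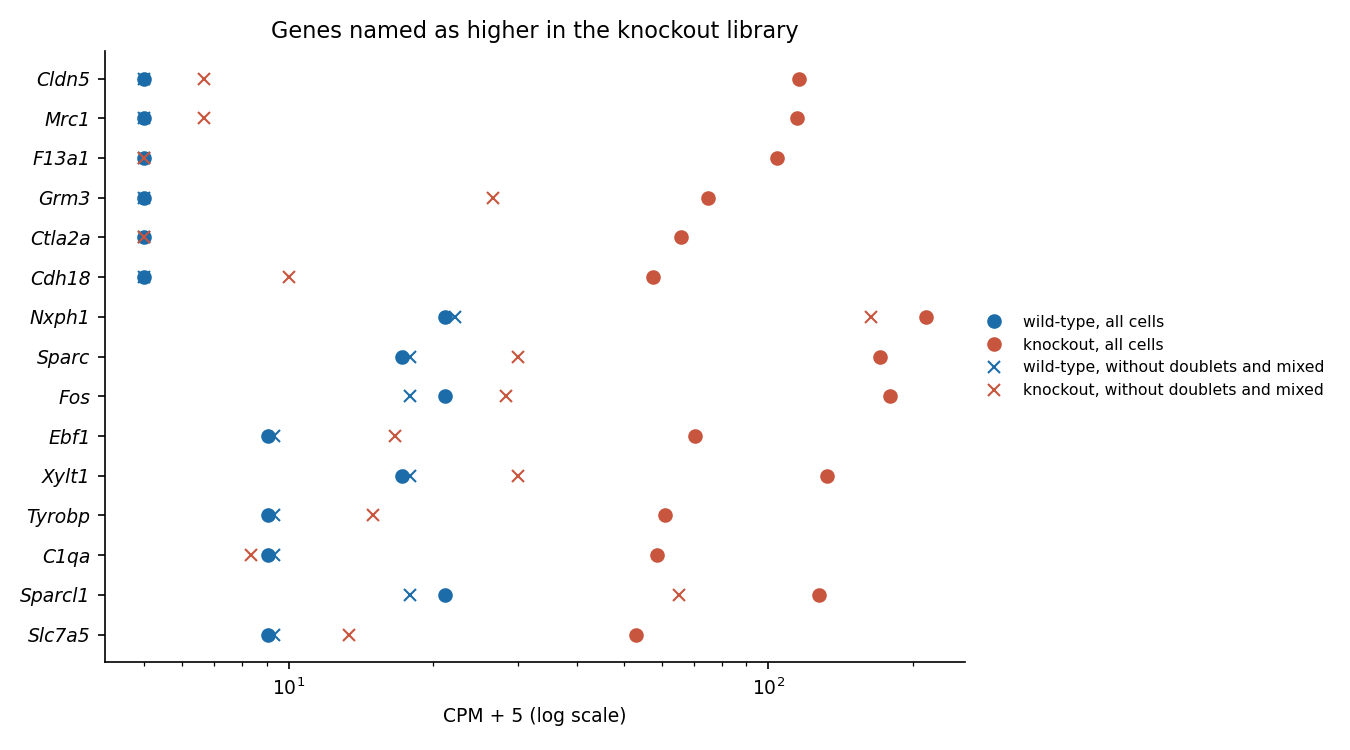
CPM plus 5, on a log scale, of the 15 genes named as higher in the knockout library, in all Adarb2/Erbb4 cells (circles) and without doublet calls and mixed barcodes (crosses), by library. The knockout crosses move to the wild-type level for Cldn5, Mrc1, F13a1 and C1qa and stay apart for Nxph1.

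Nxph1, a secreted neurexin ligand of MGE interneurons, remained higher without those cells but depended on the Adarb2 threshold. It had 4 UMIs in 3 of 64 wild-type members (4.69%) and 178 UMIs in 36 of 216 knockout members (16.7%), with at most 30 in 1 cell. The log2 ratio was 3.33, but 0.61 with 3 or more Adarb2 UMIs in place of 5, which took in 79 wild-type and 274 knockout cells. After thinning the shares were 4.17% and 11.7%, with overlapping intervals, against 2.10% and 3.58% of microglia-type cells and 63.6% and 73.8% of Lhx6 cells. In the knockout library it was found in 19 of 84 members with neither Prox1 nor Nr2f2 and in 17 of 132 with either. Other MGE genes did not move with it. Sox6 was at 198.7 and 267.3 CPM and Satb1 at 89.2 and 101.5, with intervals that include 1, and of the 12 MGE genes 6 were measured (1 higher, 1 lower).

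Some markers of other cell types were higher in the knockout members, and for most of these the difference did not hold without doublet calls and mixed barcodes. All 5 measured microglia and macrophage genes of 8 were higher by 1.5-fold, with 0 to 1 UMIs of the list per wild-type member and 0 to 171 per knockout member. Csf1r and Mrc1 were at 0 in the wild-type members. With those cells left out C1qb was at 12.9 and 3.34 CPM and Pf4 at 8.61 and 1.67. The only measured endothelial and mural gene of 8 was Cldn5, with 0 to 1 and 0 to 169 UMIs of the list per member, and Flt1, Kdr and Pecam1 at 0 in the wild-type members. Both measured oligodendrocyte genes of 8 were higher, with 0 to 14 and 0 to 57 UMIs per member and 54 of 64 and 174 of 216 members at 0. Lhfpl3, once those cells were left out, was at 68.9 and 41.8 CPM, and the log2 ratio of Olig1 came from 2.23 to -0.15. Of 12 astroglial genes 9 were measured and 5 were higher. Apoe was at 283.9 and 540.4 CPM, but at 301.2 and 157.1 CPM without those cells, and Slc1a3 then at 120.5 and 75.2. None of 8 meningeal and choroid genes was measured.

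Haemoglobin was also concentrated in few members. All 4 measured erythroid genes of 6 were higher, and haemoglobin UMIs numbered 95 among wild-type and 12190 among knockout members, of which 3 members held 11643. The median was 1 haemoglobin UMI per member in both libraries. Without doublet calls and mixed barcodes Hba-a1 was still higher, at 55.9 and 198.9 CPM. So were Hba-a2, at 64.6 and 157.1, and Hbb-bs, at 241.0 and 453.0, while Hbb-bt was at 47.3 and 33.4. Of 13 immediate early genes 7 were measured and 4 were higher by 1.5-fold, with a median log2 ratio of 0.86. Jun was at 170.3 and 312.8 CPM, and at 154.9 and 235.7 CPM without doublet calls and mixed barcodes, and Egr1 at 40.6 and 136.6 and then at 21.5 and 36.8. Beyond the values with and without those cells, the part of doublets in the other results was not tested.

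Of 16 striatal, amygdalar and olfactory genes 6 were measured, with 2 higher and 1 lower. Meis2 was at 1326 and 1736 CPM (ratio 1.31, 1.16 to 1.48) and Foxp2 at 154.1 and 304.6 CPM (1.98, 1.40 to 2.86). Without doublet calls and mixed barcodes they were at 1300 and 1822 and at 163.5 and 339.3 CPM. Microglia-type cells, used as a guide to free RNA, also held both genes more often in the knockout library, by the shares given above. The part of free RNA in these ratios was not tested. Six3 was lower, at 69.0 and 29.2 CPM, with 17 UMIs in 4 wild-type members. The share of members with 3 or more Meis2 UMIs was 42.2% for wild-type and 51.9% for knockout, with overlapping intervals (29.9 to 55.2% and 45.0 to 58.7%).

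Markers of excitatory identity and division were rarely measured. Of 12 excitatory genes 2 were measured, with Neurod2 higher by 1.5-fold (log2 ratio 0.64, and 0.38 without doublet calls and mixed barcodes), and of 8 cycling genes 1, Hmgb2, at 178.5 and 126.1 CPM. Of 15 p53 and apoptosis genes 7 were measured, with 2 higher and 1 lower. Trp53 was at 28.4 and 58.4 CPM, with an interval that includes 1. Of 10 Cajal-Retzius genes 2 were measured, with Calb2 higher by 1.5-fold and Trp73, Lhx1 and Lhx5 at 0 in both libraries, and of 10 multiciliation genes 1, Rfx3, at 182.5 and 198.4 CPM.

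The pools also differed in sex. By Xist and 4 Y-linked genes, 49 wild-type members had a female and 7 a male pattern, against 110 and 40 knockout members, and the rest had neither. Of the 4 Y-linked genes 2 were measured, with 1 higher by 1.5-fold. The part of sex in the other results was not tested beyond the values within each pattern.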

How the data were processed

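Counts of UMIs per gene and barcode were used as the authors deposited them, in 1 matrix per genotype. Per the submitters' processing notes they came from Cell Ranger 7.1.0 with the mm10 genome; the sources used here give no further settings. The matrices held no barcode under 500 UMIs. Barcodes with 1000 or more UMIs and under 10% mitochondrial UMIs were kept, and members were found by the rule. Counts were summed over members and scaled to CPM. Log2 ratios used a prior of 5 CPM and genes with a mean of 25 CPM or more. Shares have Clopper-Pearson intervals, sums Poisson intervals and ratios exact conditional intervals at 95%. Shares were also computed after thinning to 2000 UMIs. Doublets were called per library with Scrublet in scanpy 1.11.5 at expected rates of 10.4% and 22.1%, which called 4.21% and 19.1% of kept cells; they stay in unless a value says otherwise. The calculation was tested on simulated data. Python 3.11.15, NumPy 2.4.6, SciPy 1.17.1 and pandas 2.3.3 were used.

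The named genes are the 15 highest and 15 lowest log2 ratios and the 20 genes most above other Gad cells in both libraries, without haemoglobin, mitochondrial, ribosomal, sex-linked, predicted and rule genes, plus the genes of 29 lists, of which Scn2a was not matched. Some list genes are not reported here. The members and lists were chosen with earlier results of these data known. Alternatives changed the cell filter, Adarb2 threshold, doublets, sex pattern, depth, scaling, prior and gene filter; leaving out mixed barcodes, CPM without haemoglobin and mitochondrial UMIs, and calls by interval were added after the data were seen.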

Additional observations from a re-analysis of the deposited data

Results flagged for a closer look

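The CGE identity genes had a median log2 ratio of -0.37 among female-pattern members (49 wild-type, 110 knockout) and of 0.13 among male-pattern members (7 wild-type, 40 knockout), so the direction differed between the sexes. That difference was not tested, and 7 wild-type cells carry the male-pattern value.

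Transgene features appeared in data that no comparison here uses. Tomato had 9 UMIs in wild-type members and 9 in knockout members, or 36.5 and 10.5 CPM, close to the 31.8 and 14.0 CPM over all kept cells. Stop-Ai9 had 140 UMIs in 33 wild-type members and 199 in 72 knockout members, or 567.8 and 232.3 CPM, against 569.3 and 193.7 CPM over all kept cells. LacZ was at 0 in both libraries. The labels give no reporter allele for either group.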

How the results depend on the processing

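The ratio of member shares stayed above 1 in every setting run, from 1.22 of Gad cells to 1.62 after thinning, but its interval included 1 for Gad cells, for 10 or more Adarb2 UMIs (1.34, 0.948 to 1.92), for male-pattern cells (1.47, 0.651 to 3.88) and without mixed barcodes (1.31, 0.986 to 1.77). The median log2 ratio over genes, 0.04, was 0.03 without doublets, 0.06 in female-pattern and -0.08 in male-pattern cells, -0.00 with 10 or more Adarb2 UMIs, -0.03 after thinning, 0.22 with no filter on low values, 0.00 when centred by gene length, 0.06 without mixed barcodes and 0.02 without haemoglobin and mitochondrial UMIs. The count of genes higher in the knockout library, 927, was 1557 in male-pattern cells, 3362 with no filter and 415 by interval; the count lower, 620, was 1709, 1934 and 295, and 1086 after thinning. The cause was not tested, except that male-pattern cells and thinning leave fewer UMIs. Over 30 named genes and 16 settings, 8 of 480 log2 ratios changed sign: with the stricter cell filter Npy was 0.46, in male-pattern cells Npy was 1.78 and Aasdhppt 2.55, C1qa -0.20 without doublets and -0.28 with 10 or more Adarb2 UMIs, and Eps8 0.40, Cdh18 -0.60 and Tyrobp -1.02 after thinning. A further 61 moved, among them Nxph1, from 3.33 to 0.61 with 3 or more Adarb2 UMIs and 2.18 after thinning, and Cdk8, from -2.13 to -1.43 after thinning. The CGE identity median, -0.11, was 0.03 without doublets. No paired analysis was possible because each genotype has 1 library and the labels give no shared replicate numbers. Leaving out a replicate was not possible for the same reason. The 64 wild-type members limit the precision of every ratio.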
